A study of Mus musculus with 3 samples.

Results

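Sugar transport and fructose metabolism of the jejunum were followed through 9 genes: the sodium-coupled carrier genes Slc5a1, Slc5a4a and Slc5a4b, the facilitative carrier genes Slc2a1, Slc2a2 and Slc2a5, and the enzyme genes Khk, Fbp1 and G6pc. The genes were listed by symbol and looked up in the array annotation, and all 9 were found among 20738 named genes, each through 1 feature. RNA of whole proximal jejunum of 3 mice labelled Sox4 knockout (Sox4 vilCre KO, read as a deletion by a Cre recombinase under the villin promoter, which is active in the gut epithelium and not in the other cells of the gut wall) was hybridised in Cy5, each against wild-type proximal jejunum in Cy3, on 3 arrays with 2 colours. The labels used here do not give the age or sex of the mice, or whether the wild-type RNA was pooled. Each value is a log2 ratio, Sox4 knockout over wild type, so 0 means equal signal and a negative value less signal in the knockout. This direction was taken from the dyes, with Cy5 as the numerator, since the direction of the deposited ratios is not stated, and with the other numerator every sign and order below would turn. Errors are SDs over the arrays (n = 3).

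Enterocytes take glucose and galactose up from the gut lumen with sodium through SGLT1, the product of Slc5a1, and fructose through GLUT5, the product of Slc2a5. The sugars leave the cell towards the blood mainly through GLUT2 (Slc2a2), while GLUT1 (Slc2a1) is the basal glucose carrier of many cell types. The intestine also converts part of the absorbed fructose, which ketohexokinase (Khk) phosphorylates, and fructose bisphosphatase (Fbp1) and glucose 6-phosphatase (G6pc) act on the route that leads to free glucose.

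The Sox4 gene had ratios of -0.66, 0.18 and -0.46 on arrays 1, 2 and 3 over its 3 features, which puts the library labelled Sox4 knockout on array 2 slightly above wild type by this mean. The features disagreed, as feature 53932 had -1.21, -0.72 and -0.93, feature 35668 had -0.82, 0.03 and -0.43, and feature 32792 had 0.06, 1.23 and -0.02, above 0 on average (0.42). The gene's mean of -0.31 ± 0.44 did not pass the threshold given below (limma adjusted p = 0.332), so the samples are called knockout by their labels, and where the features lie relative to the deleted part was not used here. The Y-linked genes Eif2s3y (-7.28 ± 0.25) and Uty (-3.05 ± 0.91) and the X inactivation gene Xist (1.71 ± 0.18) differed on every array, so in each value below a sex difference and the genotype cannot be told apart. The test was limma's moderated test of the mean ratio against 0, with Benjamini-Hochberg adjustment over all 20738 genes and a threshold of 0.05. It called 68 genes, which is 0.328% of all genes (0.106% higher and 0.222% lower).

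None of the 9 genes passed that threshold. Slc5a4a, Slc5a4b and Fbp1 lay below 0 on every array, at 1.59 to 2.12 times less signal in the knockout, and Khk and Slc5a1 lay above 0 on every array. The other 4 genes, Slc2a1, Slc2a2, Slc2a5 and G6pc, changed sign between arrays. Being on 1 side of 0 on all 3 arrays was common, since 27.3% of all genes were below 0 and 23.2% above 0 throughout. Of the 9 genes, 4 reached an unadjusted p under 0.05 (Slc5a4a, Slc5a4b, Fbp1 and Khk), as did 26.3% of all genes (12.0% higher and 14.3% lower). The limma adjusted p-values of these 4 lay between 0.0625 and 0.0998, all above the threshold of 0.05. An adjusted p under 0.1 was not particular to them, since 10.1% of all genes had one. With 9 genes these counts are a description and were given no test.

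**Figure D1:**
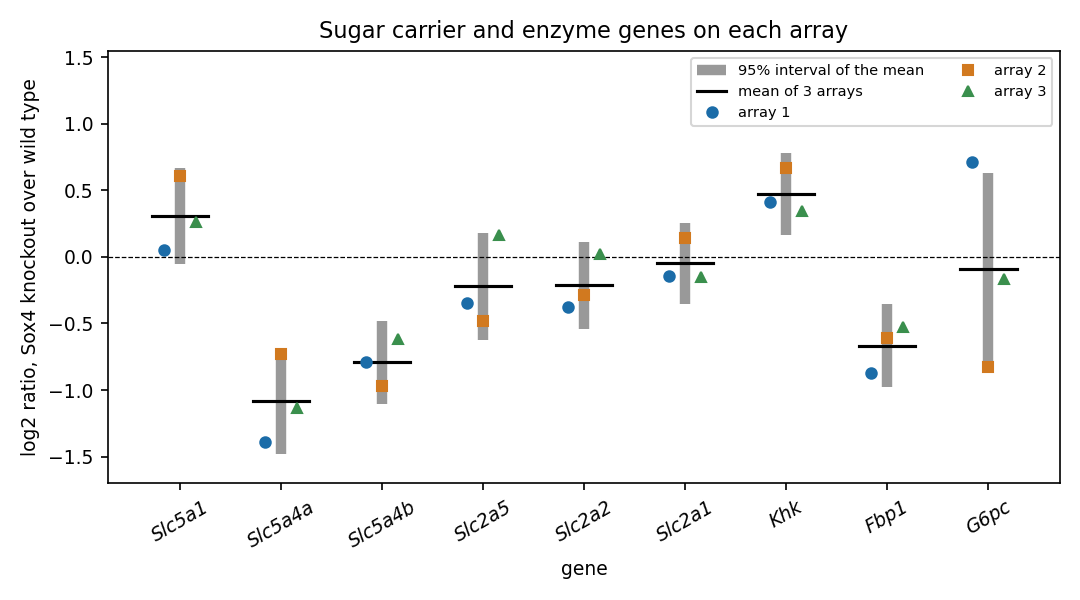
Log2 ratio of Sox4 knockout over wild type (vertical axis) of the 9 genes on arrays 1 to 3 (points), with the mean (black bar) and the 95% interval of the moderated test (grey bar). All points of Slc5a4a, Slc5a4b and Fbp1 lie below 0 and those of Khk and Slc5a1 above it, while the points of G6pc run from -0.82 to 0.71.

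Among the sodium-coupled carriers, Slc5a1 encodes the main glucose carrier of the brush border. Its ratios were 0.05 on array 1, 0.61 on array 2 and 0.26 on array 3, all above 0 but close to it on array 1. The mean was 0.31 ± 0.28 (1.24-fold, 95% interval 0.962 to 1.59-fold, limma adjusted p = 0.243). The lower bound of that interval lies close to equal signal, so the interval of this array ratio holds at most a small lowering of signal. A dye effect or sex difference cannot be told apart from the genotype in this ratio. The interval thus sets no bound on a genotype effect on Slc5a1 RNA.

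Slc5a4a and Slc5a4b encode SGLT3a and SGLT3b, relatives of SGLT1, and the human member SGLT3 is known as a glucose sensor rather than a carrier. Slc5a4a had ratios of -1.39, -0.73 and -1.14 on arrays 1, 2 and 3, the lowest mean of the 9 genes. Slc5a4b had -0.79, -0.97 and -0.62. The 2 genes did not share an order over the arrays, since array 2 held the highest ratio of Slc5a4a and the lowest of Slc5a4b. The mean of Slc5a4a was -1.09 ± 0.34 (2.12-fold lower, 95% interval -1.48 to -0.69, limma adjusted p = 0.0625). Slc5a4b averaged -0.79 ± 0.18 (1.73-fold lower, 95% interval -1.10 to -0.48, limma adjusted p = 0.0640). Both missed the threshold after adjustment, although neither interval of the single gene reached 0.

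In a list of all 20738 genes ordered by mean ratio, Slc5a4a stood at position 198 from the bottom and Slc5a4b at position 448, within the lowest 0.955% and 2.16%. The arrays spread moderately for Slc5a4a, whose SD was matched or exceeded by 25.8% of all genes. The SDs of Slc5a4b, Fbp1 and Khk were more usual, matched or exceeded by 61.4%, 59.9% and 63.2% of genes. Probe sequences were not used here, so whether the feature of one of these related genes also takes up RNA of the other was not tested.

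Slc5a4b and Slc5a4a are neighbouring coding genes on mouse chromosome 10, read in opposite directions, and both had lower signal, whereas Slc5a1 lies on chromosome 5. The 250 bases before the RefSeq start of each are shown to set the start regions of the 2 lower genes beside that of Slc5a1. They come from RefSeq, build GRCm38.p6, at chr10:76147201-76147450 on the plus strand, chr10:76111019-76111268 on the minus strand and chr5:33103969-33104218 on the plus strand. Capitals mark matches to a motif searched on both strands, namely the Sox core letters ACAAAG or ACAATG, the GATA site AGATAA, the E-box CACGTG and the HNF1 part site GTTAAT.
Slc5a4a: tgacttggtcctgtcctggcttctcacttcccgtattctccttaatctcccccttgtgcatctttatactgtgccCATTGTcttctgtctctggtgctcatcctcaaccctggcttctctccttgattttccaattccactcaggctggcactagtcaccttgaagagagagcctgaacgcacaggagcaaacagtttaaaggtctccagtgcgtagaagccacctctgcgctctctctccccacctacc
Slc5a4b: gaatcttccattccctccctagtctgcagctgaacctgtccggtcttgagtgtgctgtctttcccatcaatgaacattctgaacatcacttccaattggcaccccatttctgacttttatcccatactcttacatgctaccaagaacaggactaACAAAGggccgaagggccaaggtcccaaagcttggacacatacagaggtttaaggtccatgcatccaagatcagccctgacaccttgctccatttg
Slc5a1: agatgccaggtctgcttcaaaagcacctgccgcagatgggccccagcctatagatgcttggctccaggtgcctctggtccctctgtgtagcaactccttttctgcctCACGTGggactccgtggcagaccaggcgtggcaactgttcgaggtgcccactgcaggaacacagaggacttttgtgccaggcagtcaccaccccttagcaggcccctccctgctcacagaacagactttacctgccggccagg

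Each SGLT3 gene held 1 Sox core match in this window and Slc5a1 held none. In Slc5a4a it was ACAATG on the minus strand, 175 bases before the start, and in Slc5a4b it was ACAAAG on the plus strand, 96 bases before it. Such matches are frequent, as 10.7% of all 32851 RefSeq windows of this length held ACAATG and 16.5% held ACAAAG. The share of windows with either of them was not counted and is at least the larger of these shares. The window of Slc2a2 held ACAAAG too, while that of Fbp1, also below 0 on every array, held neither Sox core. Slc5a1 and Khk were the members with the E-box, which 6.02% of all windows held. Whether any of these motifs goes with the direction of a ratio was not tested. AGATAA (9.99% of windows) was found in the window of Fbp1 alone among the 9 genes, and GTTAAT (6.43%) in those of Khk and G6pc. No marked match overlapped another in these windows, and the letters are not evidence of a bound site.

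The ratios of related genes were also set against each other within each array, which removes anything that shifts a whole array. Slc5a1 exceeded Slc5a4a by 1.45, 1.34 and 1.40 on the log2 scale on arrays 1, 2 and 3, a mean difference of 1.39 ± 0.06, so the 2 ratios differed by 2.63 times. Against Slc5a4b the differences were 0.84, 1.58 and 0.88. Slc5a4a and Slc5a4b differed from each other by -0.29 ± 0.47, with array 2 on the opposite side of 0. The difference between Slc5a1 and Slc5a4a thus varied less over the arrays than either gene's own ratio, with the smallest SD of the 9 pairs. The other 2 pairs of this family went the other way. Slc5a1 minus Slc5a4b had an SD of 0.41, against 0.28 and 0.18 for the single genes. Slc5a4a minus Slc5a4b had 0.47, against 0.34 and 0.18. The small spread of 1 pair was given no test. Of 9 pairs compared within the 2 carrier families and the enzymes, 3 had the same sign on all arrays. They were Slc5a1 with Slc5a4a, Slc5a1 with Slc5a4b, and Khk with Fbp1. Each joins a gene above 0 on every array to a gene below 0 on every array. The sign of these differences was thus fixed by the single ratios and adds no support to them. A two-sided exact sign-flip permutation test over 3 arrays cannot give a p below 0.25. These 3 pairs had exact p = 0.25 in that test, or 0.643 after adjustment over the 9 pairs.

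**Figure D2:**
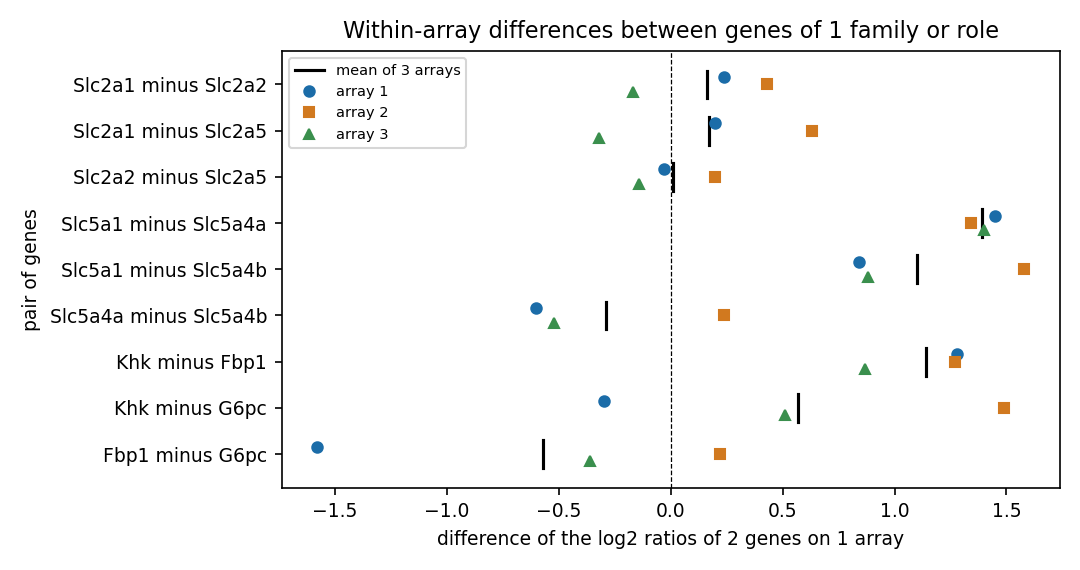
Difference between the log2 ratios of 2 genes on the same array (horizontal axis) for 9 pairs, as points for arrays 1 to 3 and a black bar for their mean. Slc5a1 minus Slc5a4a lies between 1.34 and 1.45 on all arrays, while the pairs with G6pc spread widely.

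Of the facilitative carriers, Slc2a5 (fructose uptake) had ratios of -0.34, -0.48 and 0.17 on arrays 1, 2 and 3. Slc2a2, which carries glucose and fructose out of the enterocyte, had -0.38, -0.28 and 0.02. Both were lower on arrays 1 and 2 and not on array 3. Their means were -0.22 ± 0.34 for Slc2a5 (0.859-fold, 95% interval 0.65 to 1.14-fold, limma adjusted p = 0.418) and -0.21 ± 0.21 for Slc2a2 (0.863-fold, 95% interval 0.688 to 1.08-fold, limma adjusted p = 0.343). Within arrays the 2 genes were close, with Slc2a2 minus Slc2a5 at -0.03, 0.20 and -0.14.

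Slc2a1 had -0.14, 0.14 and -0.15, on both sides of 0 and within a narrow range. Its mean was -0.05 ± 0.17 (0.967-fold, 95% interval 0.781 to 1.20-fold, limma adjusted p = 0.821). A mean at or below that of Slc2a1 was found for 47.2% of all genes, and for Slc2a2 and Slc2a5 this share was 27.5% and 26.9%. The intervals of the 3 facilitative carriers all contain 0, which does not show that their RNA was equal in both genotypes.

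Khk encodes ketohexokinase, the enzyme that commits fructose to breakdown in the cell. Its ratios of 0.41, 0.67 and 0.34 on arrays 1, 2 and 3 were all above 0. The mean was 0.47 ± 0.17 (1.39-fold, 95% interval 1.12 to 1.72-fold, limma adjusted p = 0.0998), and 6.75% of all genes had a mean as high or higher. Splice forms of Khk were not told apart by its 1 feature.

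Fbp1, the bisphosphatase of gluconeogenesis, had -0.87, -0.61 and -0.52, below 0 on every array. It averaged -0.67 ± 0.18 (1.59-fold lower, 95% interval -0.98 to -0.35, limma adjusted p = 0.0715), and 3.6% of genes had a mean at or below it. Khk exceeded Fbp1 by 1.28, 1.27 and 0.87 on the 3 arrays (mean difference 1.14 ± 0.24). These 2 enzyme genes of fructose handling stood on opposite sides of 0 throughout, which fixes the sign of that difference. The neighbouring gene Fbp2, the bisphosphatase known from muscle and chosen here after its value was seen, had -0.36, -0.39 and -0.34 (mean -0.36 ± 0.03, limma adjusted p = 0.124).

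G6pc, the catalytic subunit of glucose 6-phosphatase, had 0.71 on array 1, -0.82 on array 2 and -0.17 on array 3. The arrays thus disagreed in direction, and only 3.04% of all genes had an SD as large as its 0.77. The mean of -0.09 (95% interval -0.82 to 0.63, limma adjusted p = 0.855) leaves both a lowering and a rise of more than 1.5-fold within its interval. Pck1, the cytosolic carboxykinase of gluconeogenesis and also chosen after its value was seen, had the same order over the arrays, with 0.23, -1.57 and -0.75. Slc37a4, which carries glucose 6-phosphate to the phosphatase and was chosen in the same way, had -0.64, -0.67 and -0.23 (mean -0.52 ± 0.25, limma adjusted p = 0.104).

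**Figure D3:**
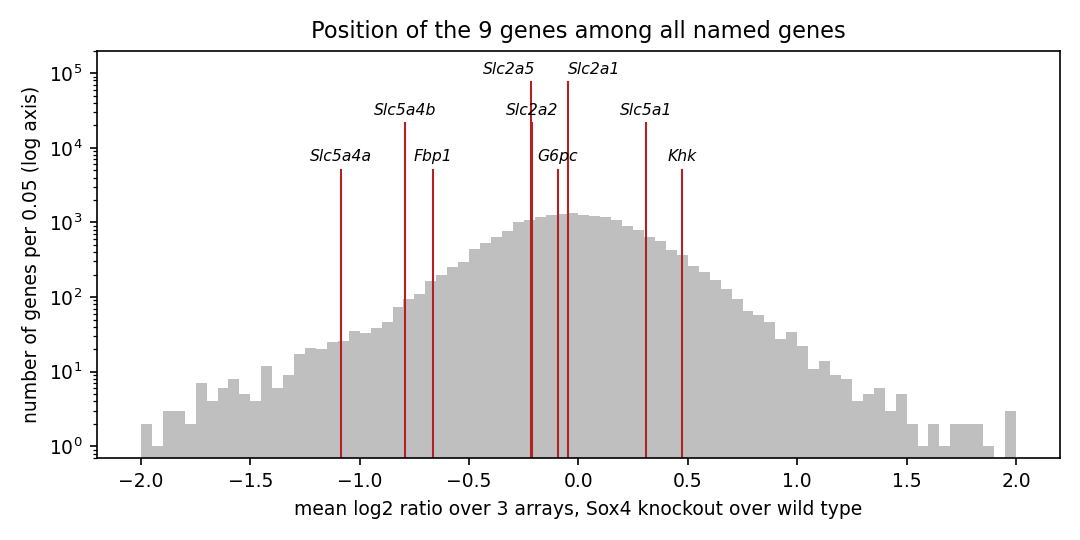
Number of genes (vertical log axis) by mean log2 ratio over 3 arrays (horizontal axis, bins of 0.05), with the 9 genes as red lines. Slc5a4a, Slc5a4b and Fbp1 lie in the left tail, where 0.955%, 2.16% and 3.6% of genes have a mean at or below theirs, and 37 genes beyond 2 in either direction are not drawn.

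By the sum of squared differences over the 3 arrays, the genes nearest to Slc5a4a, which had the smallest p of the 9, were Sycn, Art4, Bend5, Efhd1 and Greb1l, at Euclidean distances of 0.10 to 0.24 in log2 ratio. Sycn encodes a protein of the zymogen granules of the pancreas. With 3 arrays such likeness is a description of these ratios. Within a distance of 0.25 there were 5 genes for Slc5a4a, 4 for G6pc, whose arrays disagreed in sign, and between 76 and 1226 for the other 7 genes, with Slc2a1 highest.

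The wider pathways were read through 8 lists with 73 measured genes, and none of these passed the threshold. Of the 73 genes, 18 had an unadjusted p under 0.05, 5 higher and 13 lower, or 24.7% against 26.3% of all genes, and their median was -0.08 against -0.03 over all genes. The median of the 9 genes was -0.21, with 2 means above 0 and 7 below.

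Other facilitative carriers had a median of -0.06 over 11 genes, with the insulin-responsive carrier gene Slc2a4 at -0.52 ± 0.16 (limma adjusted p = 0.0884) and Slc2a12 at -0.48 ± 0.48. Slc2a7, the gene beside Slc2a5 and chosen after its value was seen, had 0.21, 0.55 and -0.50. The other sodium-coupled carriers had a median of -0.10 over 5 genes, with the inositol carrier genes Slc5a11 at -0.39 ± 0.14 and Slc5a3 at -0.38 ± 0.52. In both carrier lists an unadjusted p under 0.05 was reached by 1 gene, Slc2a4 and Slc5a11, each below 0 on every array. That is 9.09% of the 11 facilitative and 20.0% of the 5 sodium-coupled carriers, against 26.3% of all genes. Below 0 on every array were 27.3% of all genes.

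Fructose and polyol catabolism had a median of 0.04 over 10 genes. Sord, which makes fructose from sorbitol, had -0.67 ± 0.30 (limma adjusted p = 0.0845), and the aldehyde dehydrogenase gene Aldh1b1 had 0.54 ± 0.19 (limma adjusted p = 0.0881). Tkfc, a triose kinase that acts downstream of Khk, was chosen after its value was seen. It had 0.35, 1.33 and 0.14 (mean 0.61 ± 0.64, limma adjusted p = 0.194), with the highest ratio on array 2 like Khk. Above 0 on every array were 3 of the 10 genes of this list, Tkfc among them, and 23.2% of all genes.

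Gluconeogenic genes had a median of -0.01 over 14 genes, 7 with a mean above 0 and 7 below. The mitochondrial carboxykinase gene Pck2 had 0.82 ± 0.24 (limma adjusted p = 0.0654) and the malate dehydrogenase gene Mdh2 0.56 ± 0.08 (limma adjusted p = 0.0773), in the opposite direction to Fbp1. The galactose list, with a median of -0.21 over 7 genes, was led by Ugp2 (-0.40 ± 0.10), which makes UDP-glucose, and the phosphoglucomutase gene Pgm1 (-0.35 ± 0.13). The 4 disaccharidase genes, whose brush border enzymes release the sugars that these carriers take up, had a median of -0.24, with lactase (Lct) at -0.47 ± 0.45 and trehalase (Treh) at -0.31 ± 0.33, and no gene of this list reached an unadjusted p under 0.05.

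Genes of sugar sensing and of the control of carrier genes had a median of -0.24 over 17 genes, and 7 of them reached an unadjusted p under 0.05, 1 higher and 6 lower, where all genes had 26.3%, 12.0% and 14.3%. Gip, the incretin hormone released when SGLT1 carries glucose into K cells, had -0.92, -1.81 and -0.90 (mean -1.21 ± 0.52, limma adjusted p = 0.0672). Gata4, a transcription factor of proximal enterocytes, had 0.62 ± 0.12 (limma adjusted p = 0.0716). The carbohydrate response factor Mlxipl, which drives Slc2a5 and Khk in mice fed fructose, had 0.14 ± 0.19 and its target Txnip 0.13 ± 0.16, both chosen after their values were seen. For the sodium pump, which keeps up the gradient used by SGLT1, the median was -0.02 over 5 subunit and regulator genes, with Fxyd3 at -0.30 ± 0.22 and Atp1b2 at -0.26 ± 0.17.

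**Figure D4:**
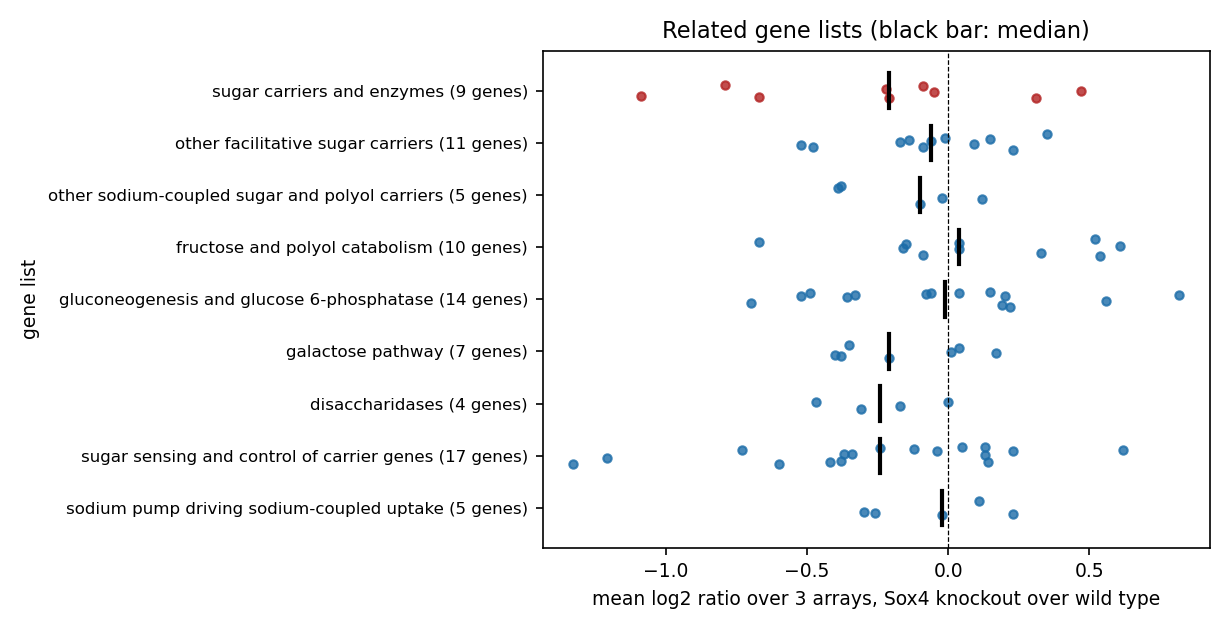
Mean log2 ratio over 3 arrays (horizontal axis) of each gene (points) in the 9-gene set (red) and in 8 related lists (blue), with black bars for the medians. The medians lie between -0.24 and 0.04, and each list but the disaccharidases holds genes on both sides of 0.

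Whole jejunum holds several tissues, and in such RNA fewer cells of a type and less RNA per cell cannot be told apart. Pan-epithelial genes had a median of 0.23 over 11 genes (Elf3 highest at 0.88 ± 0.08, Epcam lowest at -0.27 ± 0.42) and absorptive enterocyte genes -0.16 over 12 genes (Anpep highest at 0.83 ± 0.15, Apob lowest at -0.39 ± 0.60). None of the genes of these 2 lists passed the threshold in either direction. An unadjusted p under 0.05 was reached by 5 of the 11 pan-epithelial genes and 3 of the 12 enterocyte genes, all of them higher. Over all genes this share was 26.3% (12.0% higher and 14.3% lower). Adipocyte genes had a median of -1.45 over 8 genes, with 4 called lower (Adipoq, Cfd, Plin1 and Retn) against 0.222% of all genes, and Lep highest at -0.12 ± 0.29. Erythroid genes had -1.29 over 6 genes, with 2 called lower (Hbb-bs and Hbb-bt) and Slc4a1 highest at -0.09 ± 0.11. Enteroendocrine genes had -0.99 over 9 genes, with 4 called lower (Gcg, Nts, Cck and Pyy), while Sct (0.04 ± 0.59) was highest and 4 of the 9 were not below 0 on every array. Fbp1, G6pc, Khk and Slc2a2 are also strongly expressed in liver. The hepatocyte list had a median of -0.18 over 10 genes, from Serpina1a at -1.57 ± 0.57 to Hpd at 0.48 ± 0.53. An unadjusted p under 0.05 was reached by 3 of these 10 genes, all lower, against 26.3% of all genes (14.3% lower). Below 0 on every array were 5 of the 10, against 27.3% of all genes, and 3 of the 10 had a mean above 0. Kidney tubule genes had a median of 0.28 over 6 genes (Slc12a1 1.23 ± 0.44, Slc22a6 -0.12 ± 0.09), and islet genes ran from Iapp at -1.60 ± 1.03 to Ins2 at 0.67 ± 0.10 over 3 genes. Neural genes (9 genes, median -0.07, from Vip at -0.90 ± 0.51 to Nos1 at 0.30 ± 0.21), endothelial genes (7 genes, median -0.02, from Cldn5 at -0.48 ± 0.64 to Tie1 at 0.36 ± 0.58) and smooth muscle genes (7 genes, median -0.05, from Actg2 at -0.49 ± 0.44 to Smtn at 0.40 ± 0.23) had no called gene. The part of these tissues in the ratios of the 9 genes was not tested, and ratios hold no levels, so neither an absent marker nor the labelled tissue could be checked from them.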

How the data were processed

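The deposited values are ratios of Cy5 to Cy3 signal on 3 arrays with 2 colours, complete for 62976 features. How the authors corrected background, normalized and filtered, and which log base and ratio direction they used, is not given in the sources used here. The deposited ratios were read as log2 because they run from -7.44 to 5.62, beyond a scanner's range in base 10. The natural logarithm cannot be told apart by the values and would make each fold larger. Knockout over wild type was assumed from the dyes in the labels, with Cy5 as the numerator, and all signs would turn otherwise. Array medians were 0.007, 0.003 and 0.011, so no further scaling was done. Without intensities, features near background could not be removed. The number of arrays, 1 mouse each, limits the precision. There is no dye swap, so a dye effect and the genotype cannot be told apart, and the spread between wild-type mice is left out if their RNA was shared by the arrays, which the labels do not say.

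The platform annotation, updated by accession through RefSeq names of GRCm38.p6, gave 31465 features 1 symbol, and 31511 were unnamed here. Features of a gene were averaged per array (20738 genes, 6171 with several features). limma 3.58.1 in R 4.3.3 (lmFit, eBayes, 2 residual and 3.51 prior degrees of freedom) tested each mean against 0, two-sided, with Benjamini-Hochberg adjustment over all genes. The code was tested on simulated data. Tables used Python 3.11.15, pandas 2.3.3 and numpy 2.4.6, and figures matplotlib 3.10.9. Named genes were the 9 genes, Sox4, called genes of each list or else the 2 with the smallest p, and in tissue lists the called genes and both extremes. Where a gene outside this rule is given, the text says that its value was known first. The 9 genes and all lists were chosen with earlier results of these data known. Alternatives were the median of features, single features, centring, quantile and scale normalization, robust eBayes and leaving out each array.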

Additional observations from a re-analysis of the deposited data

How the results depend on the processing

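Each ratio already pairs a knockout with the wild-type RNA of its array, and all 3 arrays form 1 group, so no further pairing was possible. Of 81 values of the 9 genes under 9 other settings, 79 kept their direction and their side of the threshold. Each of the 9 genes has 1 feature, so the median of features and single features could not change its mean. Robust eBayes also leaves the mean as it is, so with these feature and eBayes settings the direction was fixed in advance. Slc5a4a, Slc5a4b, Fbp1, Khk and Slc5a1 kept 1 sign on all arrays. Leaving out an array or scaling the arrays therefore could not reverse these genes either. The count of 79 is thus no measure of how stable the directions are. The 2 reversals came from leaving out an array. Slc2a1 had 0.00 without replicate 3 (-0.15 to 0.00 over the 3 omissions) and G6pc had 0.27 without replicate 2 (-0.50 to 0.27). Leaving out 1 array moved Slc5a4a between -1.26 and -0.93, Slc5a4b between -0.88 and -0.70, Fbp1 between -0.74 and -0.57 and Khk between 0.38 and 0.54. The carrier genes near 0 moved more in proportion, as Slc5a1 had 0.16 without replicate 2 (up to 0.44 without replicate 1), Slc2a5 -0.09 without replicate 2 and -0.41 without replicate 3, and Slc2a2 -0.13 without replicate 1 and -0.33 without replicate 3. Over these settings the adjusted p ran from 0.0588 to 0.24 for Slc5a4a, 0.0603 to 0.24 for Slc5a4b, 0.066 to 0.275 for Fbp1 and 0.0907 to 0.298 for Khk. None of the 9 genes and none of the 73 pathway genes passed under any of these settings. At an adjusted p of 0.1, a threshold chosen after seeing the data, 4 of the 9 genes passed (Slc5a4a, Slc5a4b, Fbp1 and Khk), as did 8 of the 73 pathway genes and 2090 of all genes, or 10.1%. Of all genes 68 passed at 0.05, and 10 without replicate 1, 66 without replicate 2 and 4 without replicate 3, where fewer arrays were tested. Sox4 has 3 features and so no single value when features were tested one by one, and under the other settings it did not pass. Signal over background is unknown here, so whether any of the 9 features lay near it was not tested.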
